A study of Mus musculus with 7 samples.

Results

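Imprinted genes are transcribed from only the maternal or only the paternal copy in at least some tissues. The 31 genes described here are the imprinted genes named in a fixed list that lie outside the Prader-Willi and Angelman domain, and they fall into 17 imprinted regions. All probe sets that the array annotation assigns to a single one of them were taken, and 29 of the 31 genes were measured in this way, by 78 probe sets, out of 18193 genes in all. H19 shares its probe set with the microRNA gene in its transcript, and no probe set is listed for Dio3, so both were not analysed here. Each gene is represented by its brightest probe set, averaged over both groups, and its values are log2 expression.

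Expression was measured in hypothalamus dissected from mice at 3 months of age, with 1 array for each sample. The tested mice carry the genotype Creb-PomcCre-/-, in which Creb is deleted by a Cre recombinase under the control of Pomc (3 arrays, called knockout or KO here), and they were set against wild-type mice (4 arrays, WT). Pomc is expressed in a small group of arcuate neurons, so most cells of the dissected tissue keep Creb. Strain, sex and whether the wild-type mice carry Cre or a modified Creb allele are not given in the sources used here. The labels call the samples biological replicates and do not say how many mice each holds. The study asks which genes lie downstream of CREB in arcuate neurons that control appetite.

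Imprinting is set by DNA methylation marks laid down in the germ line, and one marked control region usually governs several neighbouring genes. In brain, many of these genes act on growth, feeding and hormone output. In mouse, Grb10 is known to use the paternal allele in neurons and the maternal one in most other tissues, and Igf2r is known to be expressed from both alleles in neurons. The arrays read the sum of both alleles and cannot separate them.

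Creb1 read 9.42, 9.46 and 9.47 in knockout arrays, against 9.44, 9.57, 9.40 and 9.56 in wild-type arrays, so the groups overlap. The groups differed by -0.041 ± 0.052 (SE), short of the threshold (limma, adjusted p = 0.787), and this value does not check the labels in a tissue where few cells express Pomc. Hypothalamic markers ranged widely in level. Pmch was at 13.86 in knockout and 13.74 in wild-type arrays and Avp at 12.31 in knockout and 12.26 in wild-type arrays. Below the median level of all probe sets, 6.22, were Rax (6.05 in knockout and 5.80 in wild-type arrays) and Nkx2-1 (5.76 and 5.59). Of 17 hypothalamic markers 17 were measured. Arrays were correlated at 0.994 to 0.997 over probe sets. By Xist and Y-linked transcripts, 1 of 3 knockout and 2 of 4 wild-type arrays were from females. Wild-type arrays 2 and 3 stood apart in markers of tissue around the hypothalamus. The median deviation of 21 meningeal and fibroblast markers was 0.35 in wild-type array 2 and 1.09 in wild-type array 3, against -0.40 to -0.27 in the other arrays. Thalamic markers were at 0.88 in wild-type array 2, against -0.29 to 0.23 elsewhere.

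None of the 29 imprinted genes passed the threshold of an adjusted p under 0.05, which 2 of 18193 genes (0.011%) passed (limma). The lowest adjusted p was that of Meg3, at 0.185. An unadjusted p under 0.05 was reached by 3 of the 29, Meg3, Gnas and Igf2r, all lower in the knockout, against 11.7% of all genes in either direction and 6.12% in that direction. Knockout and wild-type arrays did not overlap for 5 of the 29, or 17.2%, against 12.1% of all genes. Of these 5, Meg3, Gnas, Igf2r and Usp29 were lower in the knockout, against 6.05% of all genes, and Nnat was higher, against 6.09%. The share that was lower with no overlap was larger among bright genes. It was 10.9% in the brightest 1820 genes, which hold 14 of the 29 with Meg3 and Gnas, and 11.5% in the next 1819, which hold Usp29. Among the 1819 genes of the level group that holds Igf2r it was 6.76%. As a group the imprinted genes did not shift to one side. The count was 16 lower and 13 higher, where 48.5% of all genes were lower, with a median difference of -0.025 against 0.0036 over all genes, and that median was 0.020 with the most variable probe set per gene. The 14 genes known in mouse as paternally expressed had 7 lower and 7 higher. The 10 listed as maternally expressed had 6 lower and 4 higher, and they include Igf2r, which uses both alleles in neurons. The 5 genes listed with an expressed allele that depends on tissue or transcript had 3 lower and 2 higher.

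**Figure D1:**
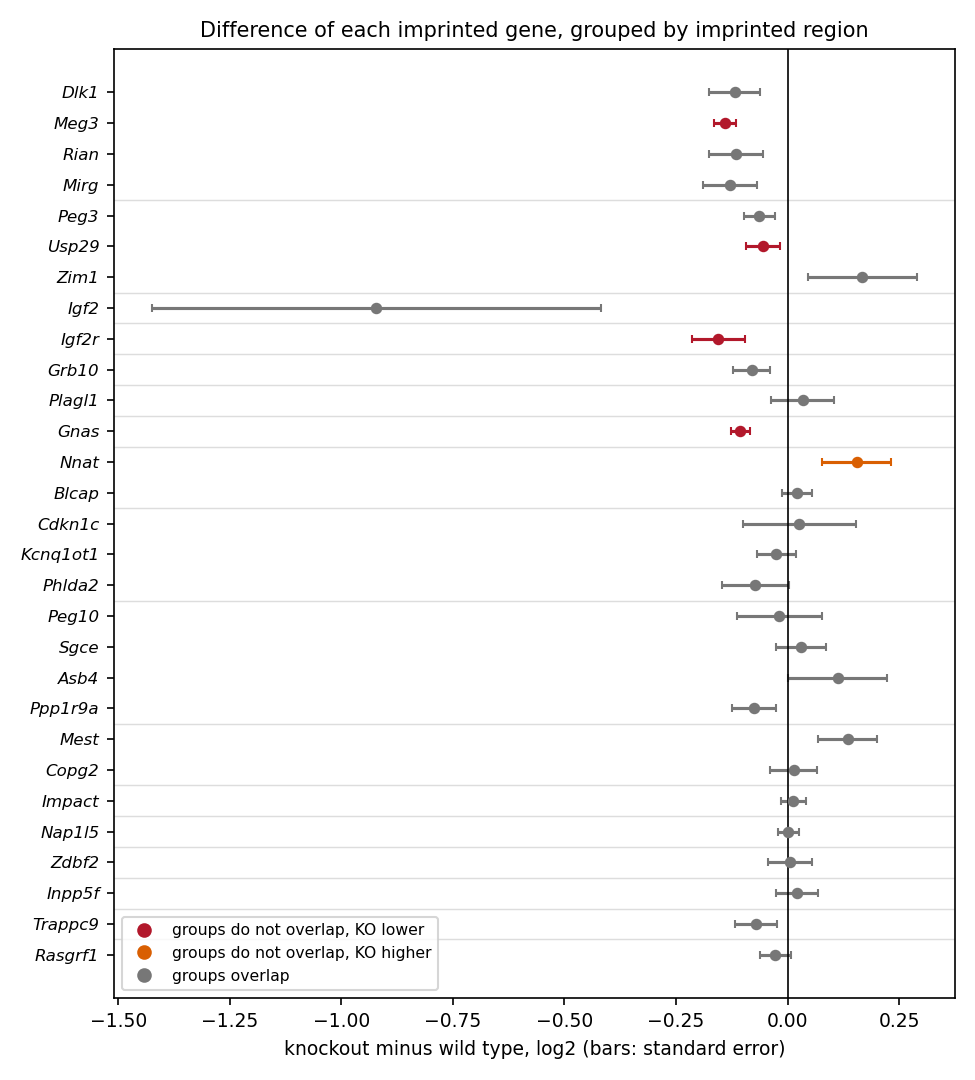
Knockout minus wild-type difference in log2 expression (horizontal axis) of the 29 measured imprinted genes, grouped by imprinted region, with limma's standard error as bars. Meg3, Usp29, Igf2r and Gnas are lower and Nnat higher with no overlap between groups, and the bar of Igf2, at -0.92 ± 0.50, is far wider than the others.

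The clearest pattern lay in Meg3, a maternally expressed long noncoding RNA of neurons and endocrine cells, transcribed between Dlk1 and Dio3. Its brightest probe set read 13.33, 13.28 and 13.27 in knockout arrays, against 13.43, 13.46, 13.42 and 13.43 in wild-type arrays. All knockout arrays lay below all wild-type arrays, with a gap of 0.089 between the groups. Means were 13.29 ± 0.031 (SD, n = 3) in the knockout and 13.43 ± 0.020 (SD, n = 4) in wild type, a difference of -0.14 ± 0.025 (SE), or 0.907-fold, which did not pass over all genes (limma, adjusted p = 0.185). Whether fewer Meg3-expressing cells or less Meg3 RNA per cell lies behind a lower value cannot be told apart in bulk tissue.

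Meg3 has 11 probe sets, and the groups did not overlap in any of them, with the knockout lower each time. Among all probe sets, 5.02% were lower with no overlap. The 11 differences ran from -0.37 to -0.14, that is from 0.775-fold to 0.907-fold, and the brightest probe set gave the smallest of them. For the probe set with the largest, knockout arrays read 11.22, 11.19 and 11.08, against 11.47, 11.65, 11.54 and 11.47 in wild-type arrays (limma over probe sets, -0.37 ± 0.054 (SE), adjusted p = 0.124). Averaged over the 11 probe sets, knockout arrays lay at -0.19, -0.23 and -0.34 relative to the wild-type mean of the same probe sets, while wild-type arrays lay between -0.029 and 0.048. None of the 11 passed over all 45037 probe sets, of which 0.00666% passed, and all 11 reached an unadjusted p under 0.01, as did 2.83% of all probe sets (limma, adjusted p from 0.124 to 0.344). The probe sets share the same 7 RNA samples, so they are repeated readings of 1 transcript and not replicates. Every probe set was lower in the knockout with no overlap for 49 of the 9010 genes with at least 2 probe sets, and every one higher for 37. With at least 3 probe sets these counts were 9 and 4 of 4315 genes, and with at least 5 they were 1, Meg3, and 0 of 856. With 1 array left out, or wild-type arrays 2 and 3 together, none of the 11 passed, and their adjusted p ran from 0.0508 to 0.849 (limma over probe sets).

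**Figure D2:**
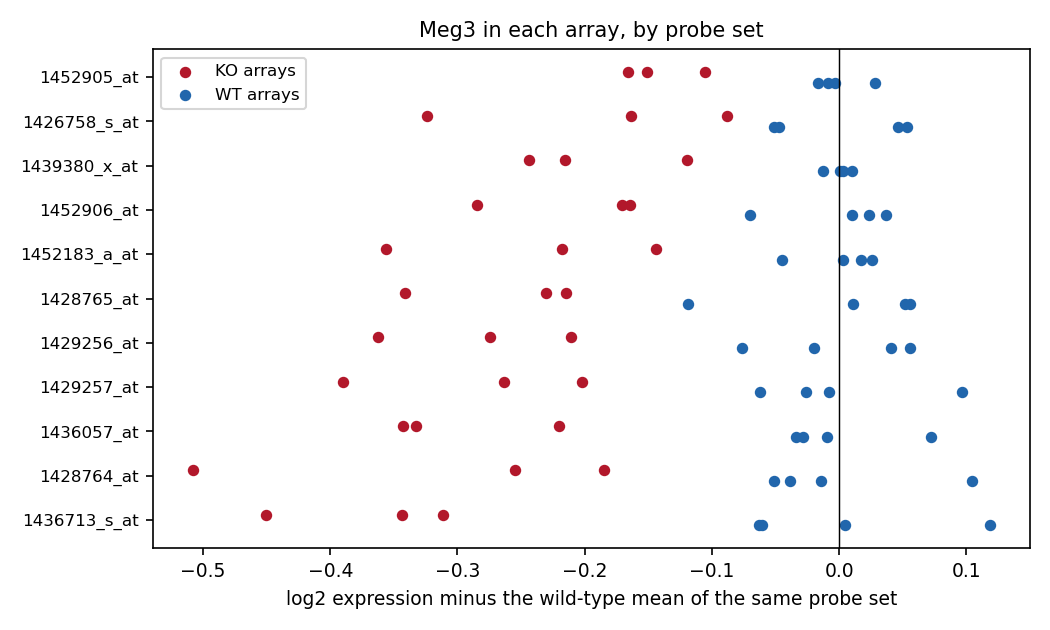
Log2 expression of Meg3 in each array minus the wild-type mean of the same probe set (horizontal axis), for its 11 probe sets, ordered by size of difference. Red points are the 3 knockout arrays and blue points the 4 wild-type arrays, and in every probe set all red points lie left of all blue points.

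Of 18 neuron markers 15 were lower in the knockout, against 48.5% of all genes, with a median of -0.063. Of the 18, 0 passed and 3 (16.7%) had an unadjusted p under 0.05, against 11.7% of all genes (limma). Their median deviation per array was -0.052 to -0.022 in the knockout and -0.014 to 0.086 in wild type, with no overlap. The neuronal splicing factor gene Rbfox3 differed by -0.18 ± 0.030 (SE) and the synaptic vesicle gene Syn1 by -0.12 ± 0.036 (SE). Neither passed (limma, adjusted p = 0.158 and 0.308). The 3 neuron markers that were higher, Tubb3, Nefl and Gap43, differed by 0.031, 0.0098 and 0.0017. Of 15 endothelial and mural markers 0 passed and 3 (20%) had an unadjusted p under 0.05, against 11.7% of all genes (limma). Their scores were -0.14 to -0.030 in the knockout and 0.0068 to 0.086 in wild type. The part of these markers in the Meg3 difference was not tested. Meg3 lies among the 1820 brightest genes, of which 52.6% were lower in the knockout, 10.9% with no overlap, and their median difference was -0.0056. When quantile normalization was applied again the difference of Meg3 was -0.16.

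The sequence before the start of Meg3 is shown because the study concerns CREB, which binds the cyclic AMP response element TGACGTCA. In the RefSeq promoter window of Meg3 (GRCm38.p6, plus strand, chr12:109540746-109541045), which holds 250 bases before the annotated start and 50 after it, the element occurs once, with its first base at -57 relative to the start. Capitals mark it.
Meg3: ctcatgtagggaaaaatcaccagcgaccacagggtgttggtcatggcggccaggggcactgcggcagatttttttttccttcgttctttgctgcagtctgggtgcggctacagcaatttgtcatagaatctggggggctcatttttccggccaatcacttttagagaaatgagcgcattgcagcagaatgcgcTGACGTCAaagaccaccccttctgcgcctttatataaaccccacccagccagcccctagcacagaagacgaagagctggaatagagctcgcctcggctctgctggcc

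RefSeq windows were found for 25 of the 31 genes. The element, searched on both strands, was present for 4 of these 25 (Meg3, Peg3, Usp29 and Zdbf2), against 2.03% of the 27025 genes in the window table. A gene can have several windows and was counted if any of them held the element. By window the counts were 4 of 38, against 1.79% of all 32851 windows. Peg3 and Usp29 share 1 site, since they are transcribed away from each other and 263 bases of their windows coincide. The Peg3 window (minus strand, chr7:6730370-6730669) and the Zdbf2 window that holds the element (plus strand, chr1:63273019-63273318) are shown to compare with that of Meg3. Capitals mark the element.
Peg3: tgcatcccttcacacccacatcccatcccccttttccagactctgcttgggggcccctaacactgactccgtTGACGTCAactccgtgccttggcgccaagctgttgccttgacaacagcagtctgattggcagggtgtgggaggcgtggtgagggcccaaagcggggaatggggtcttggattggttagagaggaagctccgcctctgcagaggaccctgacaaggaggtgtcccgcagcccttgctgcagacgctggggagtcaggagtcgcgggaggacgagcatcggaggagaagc
Zdbf2: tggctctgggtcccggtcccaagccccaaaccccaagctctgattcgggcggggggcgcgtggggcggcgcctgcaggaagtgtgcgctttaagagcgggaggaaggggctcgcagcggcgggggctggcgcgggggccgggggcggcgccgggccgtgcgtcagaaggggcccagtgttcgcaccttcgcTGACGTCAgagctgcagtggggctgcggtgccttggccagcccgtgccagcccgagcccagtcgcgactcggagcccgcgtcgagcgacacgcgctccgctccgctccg

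In the Zdbf2 window shown, the element begins at -59, close to its place in Meg3, and in the Peg3 window at -178. Another Zdbf2 window (chr1:63200108-63200407), which holds the first base of the RefSeq gene, does not contain the element. The shorter core TGACG, which the palindrome also holds on both strands, was present for 15 of the 25 genes, against 23.0% of all genes. By window it was present in 18 of 38, against 20.8% of all windows. A match of letters is a description of the sequence and was not measured as binding. The 4 genes with the full element differed by -0.14 (Meg3), -0.063 (Peg3), -0.054 (Usp29) and 0.0063 (Zdbf2).

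The other measured genes of the Dlk1-Dio3 region were also lower in the knockout, by -0.12 to -0.13, but their groups overlapped. Rian and Mirg are maternally expressed noncoding RNAs that carry small nucleolar RNAs and microRNAs. Mean Rian expression was 11.21 ± 0.043 (SD, n = 3) in the knockout and 11.32 ± 0.12 (SD, n = 4) in wild type, a difference of -0.12 ± 0.061 (SE; limma, adjusted p = 0.485). All 4 Rian probe sets were lower. In one of them the groups did not overlap, at 9.64, 9.65 and 9.61 in knockout arrays against 9.71, 9.74, 9.87 and 9.92 in wild-type arrays (limma over probe sets, -0.18 ± 0.059 (SE), adjusted p = 0.371). Without wild-type array 3, the highest, the difference of Rian was -0.059. Mirg averaged 9.03 in the knockout and 9.16 in wild type (-0.13 ± 0.061 (SE)), and its other probe set differed by -0.015. The microRNA positions used here list 1 hairpin within Meg3, 3 within Rian and 10 within Mirg, and the arrays do not measure these microRNAs. The 3 mature microRNAs within Meg3 lie apart, miR-1906 at chr12:109544588-109544609 and both arms of miR-770 at chr12:109563710-109563765. The hairpin count for Meg3 may therefore be too low. Dlk1, the paternally expressed gene at the edge of the region, encodes a transmembrane protein related to Notch ligands. It averaged 10.89 in the knockout and 11.01 in wild type (-0.12 ± 0.058 (SE)), and its other probe set differed by 0.027.

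Gnas encodes the stimulatory G protein subunit that couples receptors to cyclic AMP production, upstream of CREB, from a locus with several imprinted promoters. Its brightest probe set read 13.58, 13.57 and 13.55 in knockout arrays, against 13.69, 13.67, 13.67 and 13.66 in wild-type arrays. The groups were tight and did not overlap, at 13.57 ± 0.015 (SD, n = 3) and 13.67 ± 0.011 (SD, n = 4), and differed by -0.11 ± 0.021 (SE), or 0.929-fold, which did not pass (limma, adjusted p = 0.207). A second probe set read 5.50, 5.06 and 5.06 in knockout arrays, against 6.09, 5.54, 5.73 and 5.61 in wild-type arrays. Here too all knockout arrays were below all wild-type arrays, by -0.53 ± 0.15 (SE; limma over probe sets, adjusted p = 0.332). That probe set is below the median level of all probe sets, 6.22, and the deposited values carry no detection call. The other 3 Gnas probe sets differed by -0.13, 0.0022 and 0.013. The annotation used here does not say which of the Gnas transcripts each probe set reads.

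**Figure D3:**
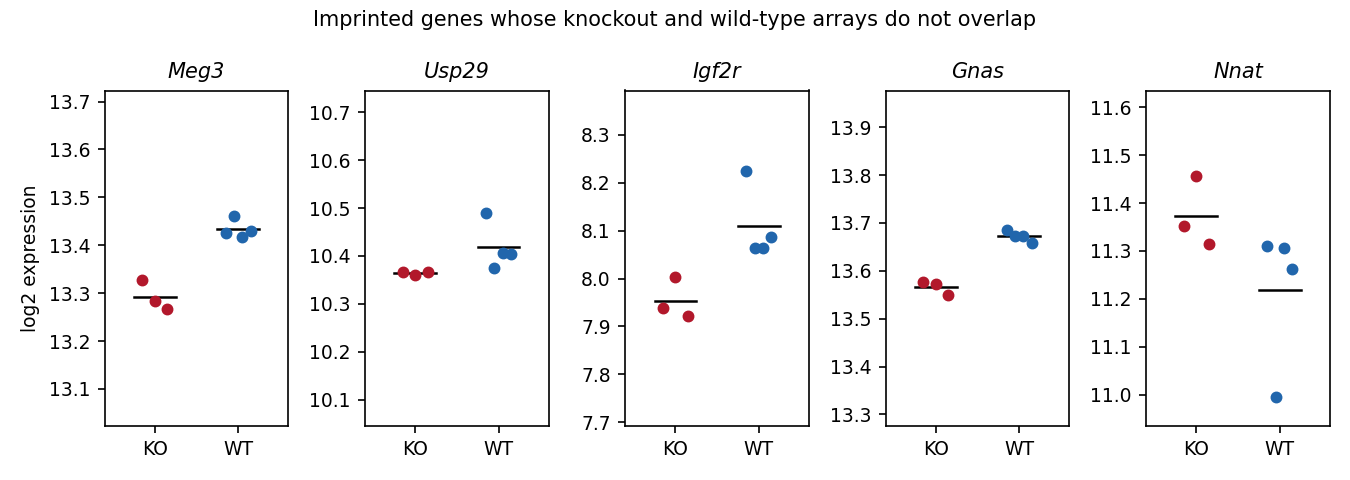
Log2 expression (vertical axis, each panel spanning the same range) in the 3 knockout (KO, red) and 4 wild-type (WT, blue) arrays for the 5 imprinted genes whose groups do not overlap, with bars at the group means. Meg3 and Gnas have clear gaps of 0.089 and 0.0815, while Usp29 and Nnat are parted by 0.0073 and 0.0040 only.

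Igf2r, the receptor that takes up the growth factor IGF2 for breakdown in lysosomes, read 7.94, 8.003 and 7.92 in knockout arrays, against 8.22, 8.06, 8.06 and 8.09 in wild-type arrays. The groups did not overlap, with wild-type array 1 highest, and the difference was -0.16 ± 0.060 (SE; limma, adjusted p = 0.379). Its other probe set was lower by -0.10 ± 0.067 (SE) with overlap. Usp29, a paternally expressed ubiquitin protease gene that shares its start region with Peg3, read 10.37, 10.36 and 10.37 in knockout arrays, against 10.49, 10.37, 10.41 and 10.40 in wild-type arrays. Knockout arrays lay just below the lowest wild-type array (-0.054 ± 0.038 (SE); limma, adjusted p = 0.593), and a dim second probe set of Usp29 differed by 0.22. Nnat is a paternally expressed small membrane protein of the endoplasmic reticulum in neurons and endocrine cells. By brightest probe set, it alone of the 29 imprinted genes was higher in the knockout with no overlap. It read 11.35, 11.46 and 11.31 in knockout arrays, against 11.31, 10.995, 11.31 and 11.26 in wild-type arrays, a difference of 0.16 ± 0.077 (SE; limma, adjusted p = 0.466). Wild-type array 2 stood well below the others, and without it the difference was 0.081. Markers of the hypothalamus were low in the same array, with a median deviation of -0.27, against -0.022 to 0.12 in the others. Their part in the Nnat difference was not tested.

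Igf2, a growth factor that is known from the meninges and choroid plexus of the adult mouse brain, had the largest difference and the widest spread. It was singled out after its values were seen. It read 8.91, 9.22 and 8.61 in knockout arrays, against 8.78, 10.13, 11.24 and 9.19 in wild-type arrays. Wild-type arrays 2 and 3 were high, and the other wild-type arrays lay within the knockout range. The groups differed by -0.92 ± 0.50 (SE), which misses the threshold (limma, adjusted p = 0.498), and the difference was -0.071 without wild-type arrays 2 and 3. A second, dim Igf2 probe set averaged 4.05 in the knockout and 4.10 in wild type (-0.049 ± 0.097 (SE)), and the mean of both probe sets differed by -0.49. Wild-type arrays 2 and 3 are the arrays with the high meningeal scores. Of 21 meningeal markers 19 were lower in the knockout, with scores of -0.40 to -0.31 in the knockout and -0.35 to 1.09 in wild type. Over the 7 arrays Igf2 followed the meningeal score at r = 0.977 (exact permutation p = 0.00635, adjusted p = 0.127 over 29 genes) and rho = 0.821 (exact permutation p = 0.0341, adjusted p = 0.806). Without the 2 arrays farthest from the median score r was 0.414, so the relation rests on those 2 arrays. The correlation with the score was computed for the 29 genes only, so no share of all genes stands beside the counts. Of the 29 genes, 4 reached an unadjusted p under 0.05 in this family and 0 an adjusted one. Beside Igf2 these were Rian (r = 0.927), Kcnq1ot1 (r = 0.895) and Mest (r = -0.780), at -0.115, 0.221 and -0.0858 without those 2 arrays. For Meg3, r was 0.475 (exact permutation p = 0.275, adjusted p = 0.830) and 0.152 without the 2 arrays (rho = 0.429, exact permutation p = 0.354).

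**Figure D4:**
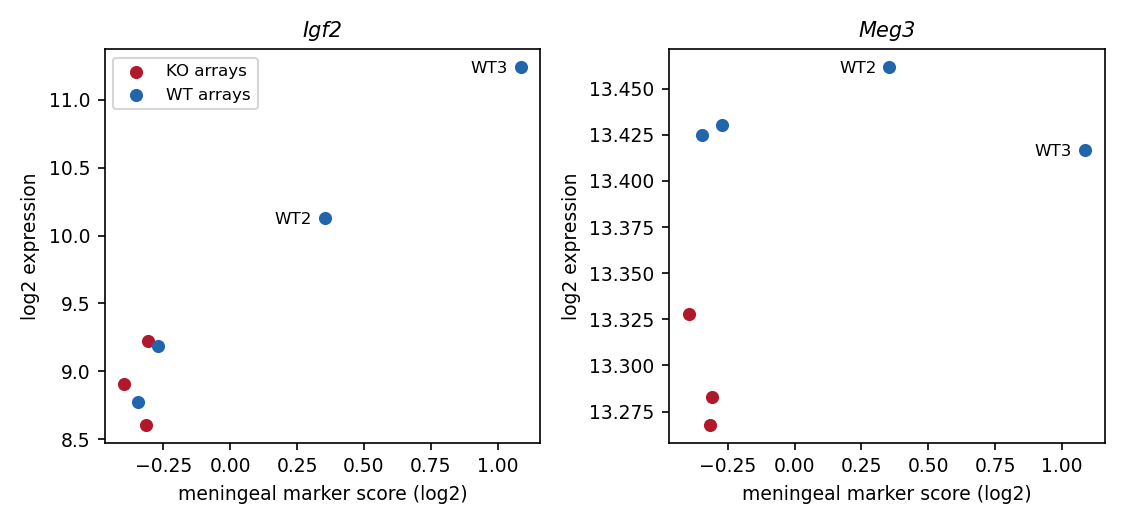
Log2 expression of Igf2 (left) and Meg3 (right) against the meningeal marker score, the median deviation of 21 markers from their means over arrays, in knockout (red) and wild-type (blue) arrays. Igf2 is high in wild-type arrays 2 and 3, which carry the high scores, and Meg3 is lower in the 3 knockout arrays than in the 4 wild-type arrays.

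The remaining growth regulators overlapped between groups. Grb10, an adaptor that dampens insulin and insulin-like growth factor receptors, averaged 11.09 in the knockout and 11.17 in wild type (-0.081 ± 0.041 (SE)). Plagl1, a zinc finger transcription factor, averaged 12.13 in the knockout and 12.10 in wild type (0.035 ± 0.071 (SE)), and its 3 probe sets were all higher. Cdkn1c, an inhibitor of cyclin-dependent kinases, averaged 7.09 in the knockout and 7.06 in wild type (0.027 ± 0.13 (SE)). Kcnq1ot1, the noncoding RNA that silences Cdkn1c on the paternal copy, averaged 8.80 in the knockout and 8.82 in wild type (-0.025 ± 0.044 (SE)), and its 6 probe sets differed by -0.14 to 0.018. Phlda2, a placental growth regulator, averaged 4.71 in the knockout and 4.78 in wild type (-0.072 ± 0.075 (SE)). It is 1 of the 3 genes, with Peg10 and Zim1, whose values lie below the median of all probe sets.

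Genes of the Peg3 region otherwise showed small differences of either sign. Peg3, a zinc finger protein known for its role in maternal care, averaged 13.28 in the knockout and 13.34 in wild type (-0.063 ± 0.034 (SE)), and its 5 probe sets differed by -0.082 to 0.029. Zim1, a maternally expressed zinc finger gene next to Peg3, averaged 6.27 in the knockout and 6.10 in wild type (0.17 ± 0.12 (SE)).

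On chromosome 6, Asb4 was examined as a gene known from arcuate neurons, where it encodes an ankyrin repeat protein of a ubiquitin ligase. It read 9.38, 9.28 and 9.01 in knockout arrays, against 9.33, 8.93, 9.02 and 9.16 in wild-type arrays. The arrays of both groups covered nearly the same range, with a difference of 0.11 ± 0.11 (SE; limma, adjusted p = 0.711), and the other Asb4 probe set differed by 0.10. Its neighbour Peg10, a gene derived from a retrotransposon, averaged 4.30 in the knockout and 4.32 in wild type (-0.018 ± 0.096 (SE)). Sgce, which encodes epsilon-sarcoglycan, averaged 9.06 in the knockout and 9.03 in wild type (0.031 ± 0.056 (SE)). Ppp1r9a, which encodes the actin-binding protein neurabin, averaged 11.19 in the knockout and 11.26 in wild type (-0.075 ± 0.048 (SE)). Of 5 Ppp1r9a probe sets 3 were higher in the knockout, 1 of them with no overlap, by 0.14, and 2 were lower. Mest, a paternally expressed hydrolase-like protein gene, averaged 7.85 in the knockout and 7.71 in wild type (0.13 ± 0.067 (SE)). Copg2, a coat protein gene that overlaps it, averaged 9.28 in the knockout and 9.27 in wild type (0.014 ± 0.052 (SE)). Nap1l5, related to nucleosome assembly proteins, averaged 13.47 in the knockout and 13.47 in wild type (0.0019 ± 0.024 (SE)).

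The others differed by -0.072 to 0.022. Blcap, whose transcript contains Nnat in an intron, averaged 11.39 in the knockout and 11.37 in wild type (0.022 ± 0.034 (SE)). Impact, a regulator of the amino acid sensor GCN2, averaged 12.57 in the knockout and 12.56 in wild type (0.013 ± 0.029 (SE)). Zdbf2, a zinc finger gene, averaged 10.51 in the knockout and 10.51 in wild type (0.0063 ± 0.049 (SE)). Inpp5f, a phosphoinositide phosphatase gene, averaged 11.75 in the knockout and 11.73 in wild type (0.020 ± 0.047 (SE)). Trappc9, a vesicle tethering factor gene, averaged 9.28 in the knockout and 9.35 in wild type (-0.072 ± 0.047 (SE)). Rasgrf1, an activator of Ras in neurons, averaged 12.44 in the knockout and 12.47 in wild type (-0.028 ± 0.035 (SE)).

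Outside Meg3, the imprinted genes had 67 probe sets. Of these, 35 were lower in the knockout, where 46.8% of all probe sets were lower. The groups did not overlap for 5 of the 67 with the knockout lower, against 5.02% of all probe sets, and for 2 with the knockout higher, against 6.02%. An unadjusted p under 0.05 was reached by 4 of the 67, against 10.6% of all probe sets (limma).

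In the related gene lists, only Snhg14 passed the threshold. Among 37 measured genes imprinted elsewhere in the mouse, 16 were lower and 21 higher, with a median of 0.012, and 0 passed. The lowest adjusted p was that of Ago2, an Argonaute protein gene next to Trappc9, at 10.86 ± 0.039 (SD, n = 3) in the knockout and 11.01 ± 0.017 (SD, n = 4) in wild type (limma, -0.15 ± 0.033 (SE), adjusted p = 0.231). Commd1 and Mcts2 differed by 0.12 and 0.16. Groups did not overlap for 5 of the 37 genes (13.5%), against 12.1% of all genes. Among 8 genes of the Prader-Willi and Angelman domain, 1 passed, the noncoding RNA Snhg14 at -1.29 ± 0.089 (SE; limma, adjusted p = 0.0018). Ndn differed by 0.27 and Ube3a by 0.33. Of the 8, 4 (50%) had an unadjusted p under 0.05, 2 lower and 2 higher, against 11.7% of all genes (limma). Groups did not overlap for 3 of the 8 (37.5%), against 12.1% of all genes. For 5 of 20 factors that set or keep imprints (25%) groups did not overlap, against 12.1% of all genes. Of the 20 factors, 12 were lower and 8 higher with a median of -0.029, and 0 passed. Among them the imprint-protecting zinc finger gene Zfp445 differed by -0.10, the methyltransferase gene Dnmt3a by -0.20 and the chromatin remodeller gene Atrx by -0.13 (limma, adjusted p from 0.313 to 0.437). Of 16 genes of insulin-like growth factor signalling, 11 were lower and 5 higher with a median of -0.088, and 0 passed. The receptor genes Igf1r and Insr differed by -0.29 ± 0.079 (SE) and -0.14 ± 0.057 (SE), with lower values in all knockout than in all wild-type arrays for Igf1r (limma, adjusted p = 0.272). Igfbp2, which binds IGF2 and is also a meningeal transcript, differed by -1.17 ± 0.48 (SE; limma, adjusted p = 0.404). Its groups did not overlap either, narrowly, with the highest knockout array at 6.75 and the lowest wild-type array at 6.78. Its spread in wild type was wide (SD 1.07, n = 4), with the highest values in wild-type arrays 2 and 3. In this list groups did not overlap for 4 of 16 genes (25%), against 12.1% of all genes. Igf1r, Igfbp2 and Igfbp6 (-0.93) were the lower ones, and Akt1 (0.088) was higher.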

How the data were processed

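Trizol-extracted total RNA of mouse hypothalamus was cleaned up, labelled with biotin and hybridised to mouse430_2 arrays, per the labels' protocols. The values are the log2 expression values deposited by the authors. The submitters' processing notes list affy, RMA and R 2.10.0 without settings. RMA usually corrects background, equalises the arrays' distributions and summarises probes by median polish. It gives no detection call, and the annotation of the probe sets may be old. Array medians lay between 6.19 and 6.24. The number of arrays limits the precision, with a median SE of 0.073 for the log2 difference over genes.

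Of 45101 probe sets, 64 were controls and were not used. Of the rest, 34945 carried 1 symbol, 932 several and 9160 none, and 34741 were found by gene identifier in the RefSeq table of GRCm38.p6. Knockout was compared with wild type over all genes and over all probe sets by limma 3.58.1 in R 4.3.3 (lmFit, eBayes with an intensity trend, two-sided, Benjamini-Hochberg adjustment, threshold 0.05). Differences are knockout minus wild type. The members and gene lists were chosen with earlier results of these data known, so list medians and counts are descriptions, with no test of a list. Every member is named. Values of each array are given for genes with an unadjusted p under 0.05 or with groups that do not overlap, and for genes with a probe set under 0.01. From each related list, up to 3 genes with the smallest p are named. Asb4, Igf2, 1 Rian probe set, marker genes, Igfbp2, Igfbp6 and Akt1 were added after their values were seen.

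Deviations from the group means of arrays with the same replicate number were correlated at 0.318, 0.101 and 0.143 over genes. Arrays with different numbers reached similar values, with knockout array 3 at 0.126 with wild-type array 2 and 0.103 with wild-type array 4. The highest value, 0.318, joins 2 arrays read as female. These values do not establish a pairing, and the labels give none, so the replicate number was used only in an alternative fit. The fit with the replicate number as a block holds only the arrays numbered 1 to 3. It changed no call. Levels of Xist and 3 Y-linked transcripts gave the sex. Alternatives were to leave out arrays or dim probe sets, to add sex or the block, to weight arrays, to normalize or centre again, to fit no intensity trend and to represent genes by other probe sets. The fit and the permutation test were tested on simulated data. Promoter letters were searched in RefSeq windows of 300 bases. Plots used matplotlib 3.10.9 (Python 3.11.15).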

Additional observations from a re-analysis of the deposited data

Results flagged for a closer look

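Within the 4 wild-type arrays, 3 of 29 genes had 1 array far from the others by Dixon's test, which flags about 1 in 20 groups by chance. Igf2r read 8.22 in wild-type array 1, against 8.06 to 8.09 in the rest. Nnat read 10.995 in wild-type array 2, against 11.26 to 11.31. Trappc9 read 9.28 in wild-type array 2, against 9.37 in each of the others.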

How the results depend on the processing

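None of the 490 values of the 29 genes under up to 17 alternatives passed the threshold, and 14 of the 29 kept their sign under every one of these, Meg3, Gnas, Igf2r, Igf2 and Nnat among them. The lowest adjusted p of Meg3 was 0.123, with the most variable probe set. It was 0.404 with the replicate block (-0.14), which changed no call, and 0.730 without wild-type arrays 2 and 3, with 0.404 and 0.730 also for Gnas. The count of all genes past the threshold was 7 with array weights, 1 with the mean of probe sets and 2 to 21 with 1 array left out (8 when knockout array 1, 21 when wild-type array 1 and 6 when wild-type array 2 was dropped). Without 1 array, 3 to 6 imprinted genes had an unadjusted p under 0.05 (6 when wild-type array 1 and 5 when wild-type array 2 was dropped), and 5 to 10 had groups that did not overlap (10 when knockout array 1 and 8 when wild-type array 2 was dropped). That count was 12 without wild-type arrays 2 and 3, where groups of 3 and 2 part more often by construction. Leaving out an array can only keep or raise the share of genes with no overlap. Shares of all genes in these refits are not given here, so the counts are not read as particular to the imprinted genes. With all 7 arrays those shares were 11.7% (unadjusted p under 0.05) and 12.1% (no overlap). Between 15 and 21 imprinted genes were lower, and their median ran from -0.049 to -0.010. With the most variable probe set 10 were lower, with a median of 0.020. The Igf2 correlation was 0.414 without 2 arrays. Signs turned for Nap1l5 (-0.00039) and Zdbf2 (-0.0012) with array weights, and for Nap1l5 (-0.0087) with quantile normalization applied again. With the mean of probe sets Usp29 was at 0.080, Ppp1r9a at 0.030, Trappc9 at 0.0058 and Rasgrf1 at 0.028. With the most variable probe set Peg3 was at 0.029, Usp29 at 0.22, Grb10 at 0.016, Ppp1r9a at 0.059, Trappc9 at 0.14 and Rasgrf1 at 0.18. With the replicate block Cdkn1c was at -0.046 and Inpp5f at -0.00064. With sex as a covariate Cdkn1c was at -0.019 and Peg10 at 0.0038. Without wild-type arrays 2 and 3 Plagl1 was at -0.055, Kcnq1ot1 at 9.8e-06, Asb4 at -0.023, Nap1l5 at -0.014 and Zdbf2 at -0.028. With 1 array left out, ranges that cross 0 were -0.027 to 0.087 for Plagl1, -0.059 to 0.12 for Cdkn1c, -0.090 to 0.060 for Peg10, -0.017 to 0.042 for Copg2, -0.0081 to 0.011 for Nap1l5, -0.027 to 0.043 for Zdbf2 and -0.019 to 0.068 for Inpp5f. The cause of these changes was not tested. The leave-outs of the Meg3 probe sets were chosen after seeing the data. All 11 stayed apart in each, which leaving out arrays cannot change. Peg10, Phlda2 and Zim1 have no value once dim probe sets are dropped. With the mean of probe sets 12 were lower, with a median of 0.0063.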

Other observations

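The hexamer TGCCGC, which the imprint-protecting zinc finger protein ZFP57 binds in methylated form, was searched on both strands of the same RefSeq windows. It was present for 10 of the 25 imprinted genes with a window (Copg2, Grb10, Igf2, Meg3, Mest, Nap1l5, Nnat, Plagl1, Zdbf2 and Zim1), against 13.1% of all genes in the table. By window it was present in 11 of 38, against 11.6% of all windows. Windows hold promoters, and imprint control regions outside them were not searched.

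Among all measured genes, 422 had the full cyclic AMP response element in a window. Their median difference was 0.0048, against 0.0039 over the 14452 measured genes with a window. Of the 422, 47.6% were lower in the knockout, against 48.4%, groups did not overlap for 14.0%, against 12.2%, and 0 passed the threshold (limma).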
